A study of Mus musculus with 24 samples.

Results

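Atf4, Atf5, Ddit3, Ppp1r15a and Ppp1r15b are the mouse genes whose mRNAs carry short upstream open reading frames (uORFs) and whose proteins act around the transcription factor ATF4 in the stress response. They were chosen by name, and all 5 were found among the 23917 gene symbols of both deposited tables. The cells were E14, an established mouse embryonic stem cell line. One group was transfected with an oligonucleotide that contains locked nucleic acids (LNA) and is antisense to tRF-GG, a fragment of a glycine tRNA, and is called the inhibitor group here. The second group received an esiRNA against GFP, a pool of short interfering RNAs used as control, and the third is labelled mock. Each group held 4 RNA libraries and 4 libraries of ribosome footprints, RNAs of 26 to 32 nucleotides from 80S ribosomes of lysates digested with RNase A and T1. All groups share the cell line and a transfection label. The control agents are not LNA oligonucleotides, so an effect of any LNA oligonucleotide and an effect of blocking tRF-GG cannot be told apart. The labels do not say that libraries came from separate cultures, so p-values measure the spread between these libraries, which may be technical.

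A short background helps to read the values. When the initiation factor eIF2 is phosphorylated by one of its kinases, initiation falls at most mRNAs, while ribosomes pass the inhibitory uORFs of a few mRNAs and translate their main coding sequence. ATF4 and ATF5 are basic leucine zipper (bZIP) transcription factors translated in this way, and CHOP, the product of Ddit3, is a bZIP factor induced downstream of ATF4. GADD34, the product of Ppp1r15a, is the inducible subunit that leads protein phosphatase 1 to eIF2 and so reverses the phosphorylation, and CReP, the product of Ppp1r15b, does so constitutively. A footprint table could therefore show a change at these mRNAs where the RNA table shows none.

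On the GRCm38.p6 assembly, Atf4 lies on chromosome 15 from 80255184 to 80257545, and Ddit3 on chromosome 10 from 127290793 to 127296291. Atf5 (44812256 to 44816658) and Ppp1r15a (45522917 to 45526268) both lie on chromosome 7, and Ppp1r15b lies on chromosome 1 from 133131166 to 133139800. RefSeq windows of 250 bases before and 50 bases after a gene's start were given for 4 of the 5 genes, with a pair of windows for Atf5. The first 50 transcribed bases can already hold the start codon of a uORF, and an ATG was found there in Ddit3, in Ppp1r15a and in one of the Atf5 windows. Each line shows 30 bases of GRCm38.p6 read 5′ to 3′ on the gene's strand, with each ATG in capitals.
Ddit3, chr10:127290813-127290842, plus strand: acacgtcgattatatcATGttgaagATGag
Ppp1r15a, chr7:45526219-45526248, minus strand: aagccgcgtggacgATGttggcgcagattg
Atf5, chr7:44815609-44815638, minus strand: gatctgtgtgtgtgacactgATGaagggcc
The ATG codons began at base 37 and base 46 of the transcribed part in Ddit3, in the same frame, at base 35 in Ppp1r15a and at base 41 in Atf5. None of the 4 was followed by an in-frame stop codon inside its window. The Atf4 window and the other Atf5 window held no ATG in these 50 bases. Of 32851 RefSeq windows, 44.3% held an ATG in the same stretch, and where ribosomes sat on it cannot be read from values summed per gene.

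The same windows, over their whole length, were searched on both strands for motifs that bZIP factors bind, because Ddit3 and Ppp1r15a are themselves induced in the stress response. The palindrome TGACGTCA, the cyclic AMP response element, was found in Ppp1r15a, beginning at position -12 from the start, and in 1.79% of all windows. The AP-1 element TGACTCA was found in Ddit3, beginning at position -242, and in 5.20% of all windows. They are printed on the gene's strand with the motif in capitals.
Ppp1r15a, chr7:45526269-45526304, minus strand: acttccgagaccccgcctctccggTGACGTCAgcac
Ddit3, chr10:127290543-127290581, plus strand: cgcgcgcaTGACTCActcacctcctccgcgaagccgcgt
The core TGATGNAA of the composite element for C/EBP and ATF factors was found in 0 of the 5 windows of these genes and in 3.97% of all windows. These matches describe letters only.

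Values are FPKM as deposited, scaled between the libraries of a table by a median of ratios and called scaled FPKM here. The 45S ribosomal precursor Rn45s took 62.7%, 18.1% and 39.1% of the summed FPKM in the RNA libraries numbered 1 of the inhibitor, GFP and mock groups, against 1.68% to 5.25% in the other RNA libraries. The scaling raised the values of these libraries numbered 1. Atf4 RNA went from 23.2 as deposited to 137 in inhibitor library 1. In mock library 1 it went from 60.9 to 136 and in GFP library 1 from 122 to 139. The number of genes at 1 FPKM or more in an RNA library ranged from 6697, in inhibitor library 1, to 11884. Depth relative to the deepest library spanned 13.9-fold in RNA and 4.82-fold in footprints. Absolute depth is unknown. All 8 stem cell markers were measured, with sums of 2438 to 3521 scaled FPKM in inhibitor RNA, 2622 to 3488 in GFP RNA and 2443 to 3661 in mock RNA. Of 9 markers of fibroblast feeder cells 2 reached a mean of 0.5 FPKM, and Dcn and Lum were listed at 0 in every RNA library. Sums over all 9 were 60.8 to 124 in inhibitor, 54.1 to 133 in GFP and 61.7 to 132 in mock libraries. All 6 primitive endoderm markers reached a mean of 0.5 FPKM, with sums of 4.46 to 23.5, 4.34 to 15.1 and 4.36 to 15.7 in the same order. So did 4 of 6 trophoblast markers, with sums over all 6 of 10.7 to 44.4, 7.50 to 49.1 and 5.33 to 41.5.

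Atf4 was the most abundant of these mRNAs by a wide margin. Its RNA level, a scaled FPKM and so a value per transcript length, had a mean of 184 over the 12 RNA libraries and stood above 98.03% of the 12560 genes tested. Ppp1r15b followed at 41.9, and in 0 of 12 libraries did the lower gene of this pair reach the higher one. Ppp1r15a stood at 17.5, Atf5 at 13.2 and Ddit3 at 9.13, and below Ppp1r15b the order was not fixed. Atf5 reached or passed Ppp1r15a in 2 of 12 libraries and Ddit3 reached or passed Atf5 in 3 of 12. The constitutive phosphatase subunit was listed at a higher RNA level than the inducible one in 12 of 12 libraries.

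Footprints gave the same order, except that Atf5 stood above Ppp1r15a. Atf4 had a mean of 51.6 scaled FPKM over the 12 footprint libraries and Ppp1r15b 8.85, again with no library in which the lower reached the higher. Atf5 followed at 6.18, Ppp1r15a at 4.23 and Ddit3 at 3.12. Ppp1r15a reached or passed Atf5 in 3 of 12 libraries, and Ddit3 reached or passed Ppp1r15a in 3 of 12. The lowest footprint value of any of the genes was 0.845 for Ddit3 in inhibitor library 4, so Ddit3 rests on the least signal.

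**Figure D1:**
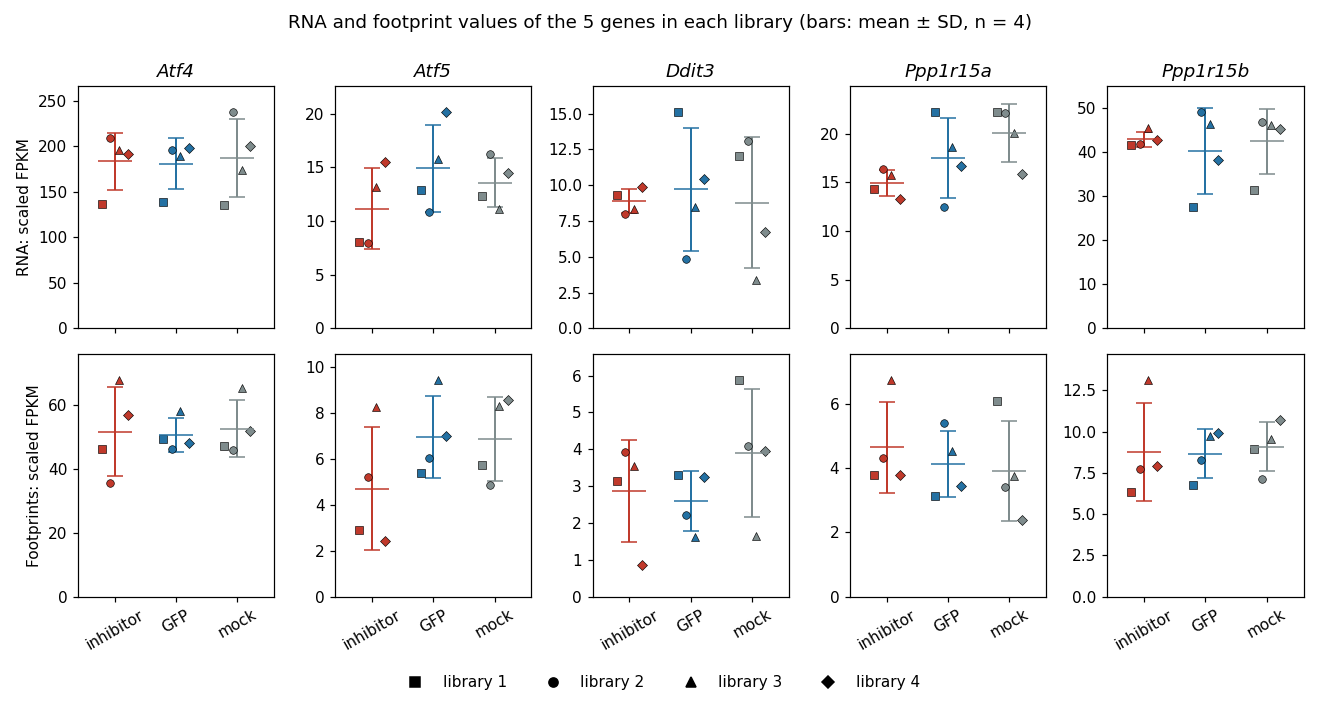
Scaled FPKM of the 5 genes, 1 panel a gene, in RNA (upper row) and footprints (lower row) of the inhibitor, GFP and mock groups; each marker is a library, its shape gives the library's number, and bars show the mean ± SD (n = 4). Every axis starts at 0 and has its own scale, the groups overlap in every panel, and the Atf4 RNA libraries numbered 1 lie lowest in each group.

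The footprint-to-RNA ratio of a gene is often read as translational efficiency. The tables were normalized separately, so each ratio is given as log2(footprint + 1) minus log2(RNA + 1), less the median of the same over 10497 genes. Atf4 lay well below most genes. Its ratio was -1.03 ± 0.48 (log2, SD from 4 RNA and 4 footprint libraries) in the inhibitor group, -0.98 ± 0.28 in the GFP group and -0.99 ± 0.41 in mock. These put Atf4 above 7.76%, 8.34% and 8.64% of the genes. As a plain quotient of group means, Atf4 had 0.282, 0.280 and 0.281 footprint FPKM per RNA FPKM, nearly the same value in each group.

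Ppp1r15b, which encodes the constitutive subunit, had ratios of -1.41 ± 0.41, -1.24 ± 0.44 and -1.30 ± 0.35 in the inhibitor, GFP and mock groups. They stood above 2.72%, 4.14% and 3.75% of genes, so it had the lowest ratio of the 5 in the inhibitor and GFP groups. Ppp1r15a, the inducible subunit, stood at -0.72 ± 0.35, -1.01 ± 0.44 and -1.34 ± 0.49, above 15.4%, 7.63% and 3.33% of genes. Its groups differed most in order, with the inhibitor highest and mock lowest, and the test of that difference is given with the comparisons. Ddit3 stood at -0.64 ± 0.67, -0.68 ± 0.70 and -0.13 ± 0.98, above 17.9%, 16.7% and 42.3% of genes, and its SD was as large as these ratios. Atf5, the closest relative of Atf4 here, differed from it. Its ratios of -0.35 ± 0.79, -0.16 ± 0.47 and -0.10 ± 0.42 stood above 30.7%, 40.4% and 44.1% of genes. Over all libraries the ratios stood above 3.27% of genes for Ppp1r15b, 7.43% for Ppp1r15a, 8.06% for Atf4, 23.6% for Ddit3 and 37.5% for Atf5.

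**Figure D2:**
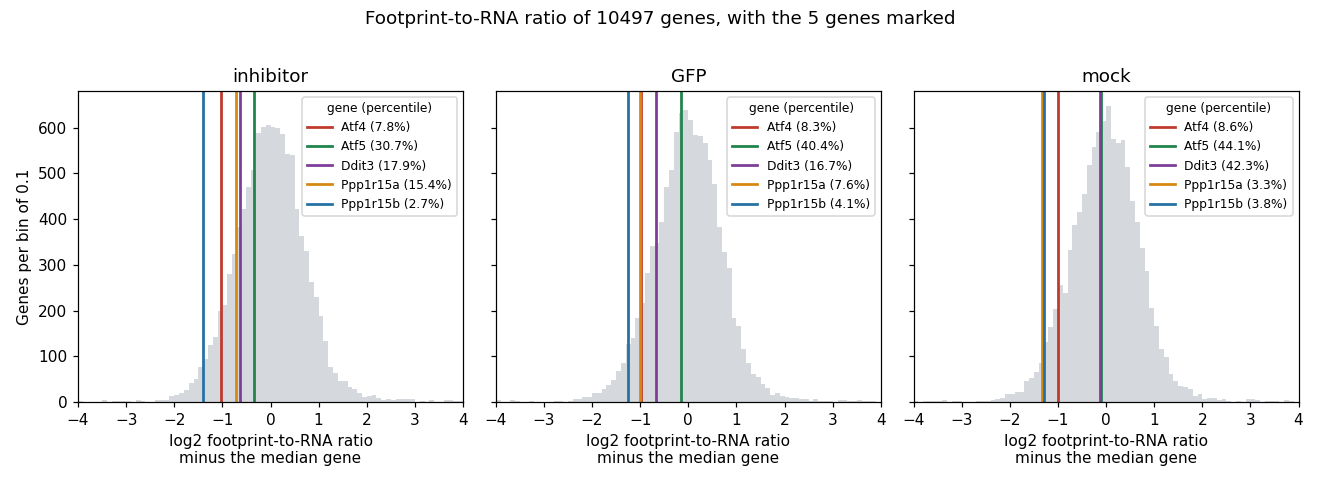
Histogram of the footprint-to-RNA ratio (log2, less the median gene) of 10497 genes in the inhibitor, GFP and mock groups, with a line at the value of each of the 5 genes and the percentage of genes below it in the key. The lines of Atf4 and Ppp1r15b lie in the left tail in each group, while those of Ppp1r15a and Ddit3 change place between groups.

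The place of these genes among all genes depended on how low values were handled. With a pseudocount of 0.1 in place of 1, Atf4 stood above 17.6% to 18.5% of genes and Ppp1r15b above 7.48% to 9.89%. Among the 4489 genes that averaged 5 FPKM or more in both tables, where the pseudocount matters less, Atf4 stood above 3.52% to 3.90% and Ppp1r15b above 1.31% to 1.85%. Atf5 stood above 19.1% to 30.3% of these genes, and Ddit3 and Ppp1r15a are not among them. Both tables give values per whole transcript, so footprints on a uORF and on the coding sequence are summed, and the ratio does not say which was occupied. How the length of untranslated sequence enters the ratio was not tested.

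Other mRNAs with known uORFs spread over nearly the whole range of ratios. Of 16 listed names 13 were measured in both tables. Slc35a4, whose translation is known from human cells to resist eIF2 phosphorylation, stood above 7.85% of genes, close to Atf4 at 8.06% over all libraries. Ibtk stood above 10.4%, the polyamine synthesis enzyme gene Odc1 above 13.2%, the arginine transporter gene Slc7a1 above 18.9% and Mdm2, which encodes the ubiquitin ligase of p53, above 23.0%. The median of the 13 stood above 30.9% of genes, against 8.06% for the median of the 5 genes around ATF4. Among the 4489 genes that averaged 5 FPKM or more in both tables these medians stood above 18.8% (9 left) and 3.63% (3 left). Slc35a4 and Ibtk are not among those genes. At the upper end of the 10497 genes Cebpb stood above 69.8%, Zfp36l1 above 79.5% and Uchl5 above 91.7%. Amd1 stood above 99.2%, but its RNA was listed at 0 in 8 of 12 libraries, so its ratio is not reliable. The subunits of eIF2 and its exchange factor eIF2B, with related factors, had a median above 86.1% of genes (11 measured). The eIF2 kinases, phosphatase catalytic subunits and their regulators had a median above 24.4% of genes (10 measured). Both lists were split, with 4 of the 11 and 5 of the 10 below the 25th percentile. Among genes averaging 5 FPKM or more in both tables the median of the 11 stood above 77.8%.

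**Figure D3:**
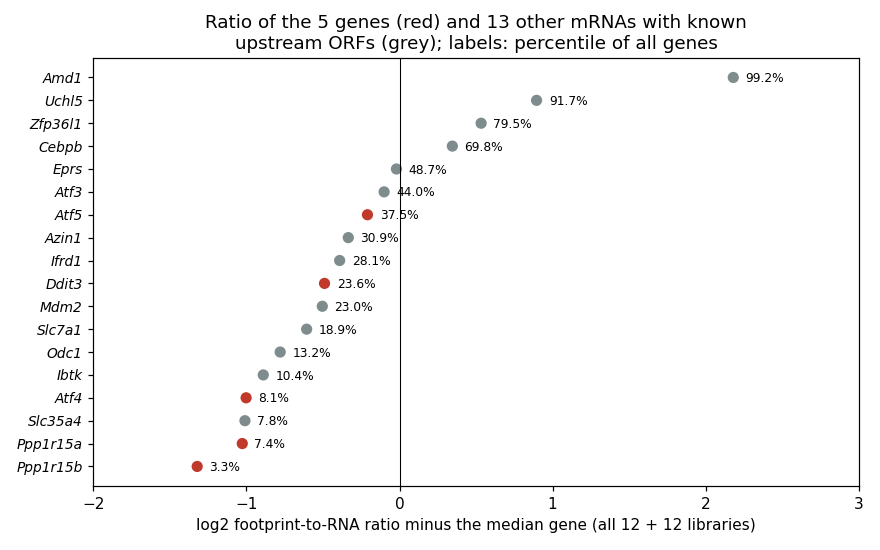
Footprint-to-RNA ratio over all libraries (log2, less the median gene) for the 5 genes (red) and 13 other mRNAs with known uORFs (grey), 1 point a gene, with the percentage of genes below it. Ppp1r15b has the lowest value of those shown, Ppp1r15a, Slc35a4 and Atf4 follow side by side, and Cebpb, Zfp36l1, Uchl5 and Amd1 lie above the median gene.

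The comparison of the inhibitor with the GFP control asks whether blocking tRF-GG moves the RNA or the footprints of these genes. Neither moved past the threshold for any of them. By limma with Benjamini-Hochberg adjustment over all genes tested, 0 of 5 passed 0.05 in RNA and 0 of 5 in footprints, where 0.0159% and 0.00937% of all genes passed. At an unadjusted p under 0.05 there were also 0 of 5 in each table, against 3.11% and 3.31% of all genes. The groups overlapped for all 5 genes in both tables, while 2.29% and 2.09% of all genes had groups that did not overlap. In bulk samples such as these, fewer cells with a transcript and less transcript per cell cannot be told apart.

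Atf4 RNA was 137, 209, 196 and 191 scaled FPKM in inhibitor libraries 1 to 4 and 139, 196, 189 and 198 in GFP libraries 1 to 4. In each group library 1 was the lowest and the other libraries lay close together. The difference was 0.02 (log2) with a 95% interval of -0.44 to 0.47. Atf4 footprints were 46.2, 35.4, 67.8 and 57.0 in the inhibitor and 49.3, 46.3, 58.2 and 48.2 in the GFP libraries. The inhibitor libraries were more spread, with both the lowest and the highest value, around nearly the same mean of 51.6 ± 13.9 against 50.5 ± 5.28 (SD, n = 4). The footprint difference was -0.00 with an interval of -0.42 to 0.41. With FPKM left as deposited, a scale on which the median of all genes moved by -0.39, the Atf4 RNA difference was -0.53 and again did not pass.

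Atf5 had the largest difference of the 5 genes, and it was lower with the inhibitor in both tables without passing the test. Atf5 RNA was 8.02, 7.99, 13.2 and 15.5 in the inhibitor libraries and 12.9, 10.8, 15.8 and 20.2 in the GFP libraries. Libraries 1 and 2 were low in both groups, and the inhibitor value was the lower one at each of the 4 numbers. Inhibitor library 1 was listed at 1.36 FPKM as deposited, so its value of 8.02 rests on the scaling. Its pair also gave the largest of the 4 RNA differences, -0.62. The RNA difference was -0.41 with an interval of -0.93 to 0.12. Atf5 footprints were 2.90, 5.23, 8.26 and 2.43 in the inhibitor and 5.37, 6.04, 9.43 and 6.98 in the GFP libraries. Again all 4 same-numbered pairs were lower with the inhibitor, with log2 differences of -0.71, -0.18, -0.17 and -1.22 at numbers 1 to 4, so that numbers 1 and 4 carried most of it. The footprint difference was -0.57 (SE 0.29) with an interval of -1.20 to 0.07 (limma adjusted p = 1). Leaving out 1 library at a time gave -0.84 to -0.36 in footprints and -0.57 to -0.26 in RNA. In these groups same-numbered libraries deviated together in both tables, and with the replicate number as a block the adjusted p by limma was 0.794 for Atf5 RNA and 0.560 for Atf5 footprints. Before adjustment the blocked limma p of Atf5 footprints was 0.0286, and 7.74% of all genes were under 0.05 in that fit. In RNA all 4 pairs were lower in 9.32% of all genes and in footprints in 9.01%, and of the 5 genes Atf5 alone had this pattern in this comparison.

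Ddit3 had similar means in both groups. Its SD was larger in the GFP group in RNA (4.28 against 0.853 scaled FPKM) and larger in the inhibitor group in footprints (1.39 against 0.815). Ddit3 RNA was 9.32, 8.01, 8.37 and 9.87 with the inhibitor and 15.1, 4.84, 8.48 and 10.4 in the GFP libraries. All inhibitor values fell inside the range of the GFP values. The difference was -0.03 with an interval of -0.79 to 0.74, the widest interval among the 5 genes in RNA. Ddit3 footprints were 3.15, 3.93, 3.55 and 0.845 with the inhibitor and 3.31, 2.23, 1.63 and 3.24 in the GFP libraries. Inhibitor library 4 stood lowest of all, while inhibitor libraries 2 and 3 stood above all GFP libraries. The footprint difference was 0.04 with an interval of -0.69 to 0.77.

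Of the phosphatase subunits, Ppp1r15a RNA was 14.3, 16.3, 15.8 and 13.3 with the inhibitor and 22.2, 12.4, 18.7 and 16.7 in the GFP libraries. GFP libraries 1, 3 and 4 lay above all inhibitor libraries and GFP library 2 lay below them. The RNA difference was -0.19 with an interval of -0.60 to 0.22. Ppp1r15a footprints were 3.77, 4.31, 6.74 and 3.78 against 3.13, 5.41, 4.53 and 3.45, with a difference of 0.13 and an interval of -0.39 to 0.65. Inhibitor library 3 was the highest here, as it was in the inhibitor footprints of Atf4, Atf5 and Ppp1r15b, and it was also the shallowest footprint library, at 20.7% of the deepest. Ppp1r15b RNA was 41.7, 41.9, 45.4 and 42.7 against 27.5, 49.2, 46.5 and 38.4, so the scaled inhibitor values lay within a narrow band inside the GFP range. As deposited, Ppp1r15b RNA was 7.07 FPKM in inhibitor library 1 and 56.65 to 65.4 in the other inhibitor libraries. The place of library 1 in this band therefore rests on the scaling. The Ppp1r15b RNA difference was 0.12 with an interval of -0.31 to 0.55. Ppp1r15b footprints were 6.34, 7.73, 13.1 and 7.93 against 6.74, 8.27, 9.76 and 9.91, with a difference of -0.02 and an interval of -0.46 to 0.43.

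**Figure D4:**
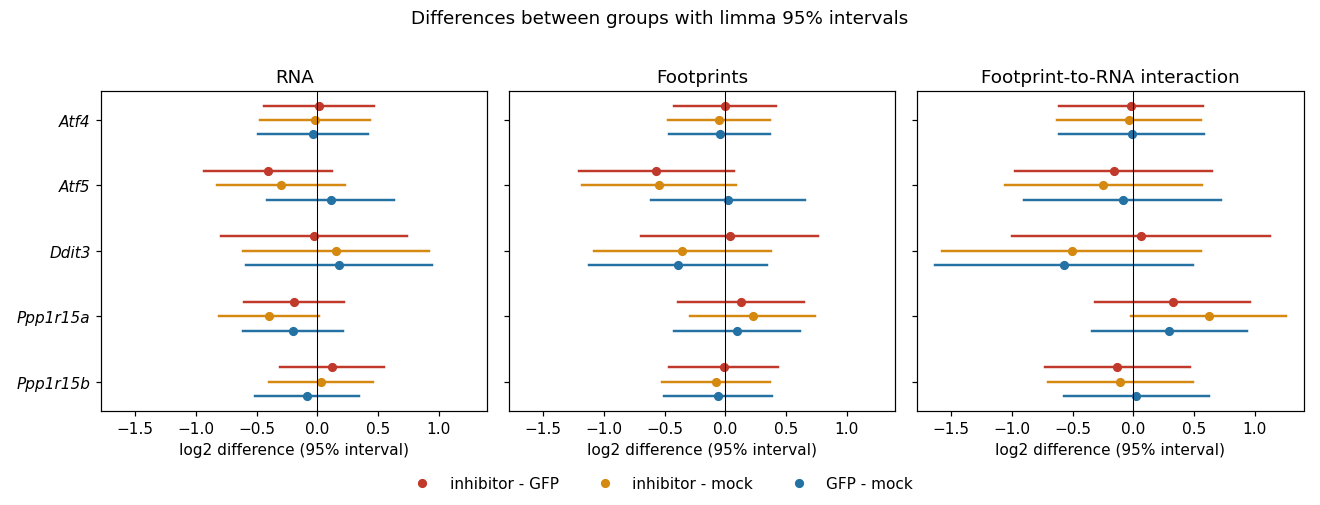
Difference between groups (log2, point) with its 95% interval by limma (line) for each gene, in RNA, in footprints and in the footprint-to-RNA interaction; colours mark the 3 comparisons. All 45 intervals include 0, those of Atf5 footprints with the inhibitor lie mostly below it, and that of the Ppp1r15a interaction against mock lies mostly above it.

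The comparison of the inhibitor with mock uses the same inhibitor libraries, so it is no independent repeat. By limma 0 of 5 genes passed in RNA and 0 of 5 in footprints, where 0.0239% and 0% of all genes passed. At an unadjusted p under 0.05 there were 0 of 5 in both, against 3.66% and 3.59% of all genes. The groups overlapped for all 5 genes, and did not overlap for 2.35% of all genes in RNA and 2.02% in footprints. Ppp1r15a RNA came nearest. It was 22.2, 22.1, 20.1 and 15.8 in mock libraries 1 to 4 against the 13.3 to 16.3 of the inhibitor libraries, so mock library 4 alone reached into the inhibitor range. The difference was -0.39 with an interval of -0.81 to 0.02 (limma adjusted p = 1, and 0.566 with the replicate block). Before adjustment the blocked limma p was 0.0401, and 8.42% of all genes were under 0.05 in that fit. All 4 same-numbered pairs were lower with the inhibitor, as in 7.65% of all genes in RNA. The pair numbered 1 gave the largest of these differences, -0.60. Its inhibitor library was at 2.43 FPKM as deposited and at 14.3 after scaling, so the size of that difference rests on the scaling. Ppp1r15a footprints did not share the direction, at 6.08, 3.42, 3.74 and 2.38 in mock and a difference of 0.23 with an interval of -0.29 to 0.74.

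Atf5 footprints were 5.73, 4.87, 8.31 and 8.56 in mock, and the difference of -0.55 had an interval of -1.18 to 0.09. With the replicate block the limma p was 0.0339 before and 0.602 after adjustment, where 7.93% of all genes were under 0.05 before it, but the numbers did not pair these footprint groups. Inhibitor libraries 1 and 4 lay below all mock libraries, and libraries 2 and 3 lay within the mock range. Atf5 RNA was 12.3, 16.3, 11.2 and 14.5 in mock, 2 of the 4 pairs were lower with the inhibitor, and the difference was -0.30 with an interval of -0.82 to 0.23. Atf4 RNA in mock was 136, 238, 174 and 200 and Atf4 footprints were 47.3, 45.7, 65.3 and 51.9. The Atf4 differences of -0.02 in RNA and -0.05 in footprints had intervals of -0.47 to 0.44 and -0.47 to 0.37. Ddit3 differed by 0.16 in RNA and by -0.35 in footprints, and Ppp1r15b by 0.03 and -0.08, all with intervals that include 0.

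The comparison of the GFP esiRNA with mock shows how far the controls differ from each other. By limma 0 of 5 genes passed in RNA and 0 of 5 in footprints, where 0% and 0.00937% of all genes passed. At an unadjusted p under 0.05 there were 0 of 5, against 0.525% and 0.459% of all genes. The groups overlapped for all 5 genes, and did not overlap for 0.382% and 0.516% of all genes. In RNA the differences ran from -0.20 for Ppp1r15a to 0.18 for Ddit3. Ddit3 RNA was 12.01, 13.1, 3.35 and 6.74 in mock libraries 1 to 4, with an SD close to that of the GFP group (4.56 against 4.28), and mock RNA library 3, the lowest, was also the shallowest RNA library at 7.17% of the deepest. In footprints Ddit3 had the largest difference, -0.39 with an interval of -1.12 to 0.34. It was lower in GFP than in mock in all 4 same-numbered pairs, as were 3.99% of all genes. The numbers did not pair these footprint groups, however, and at number 3 the values were nearly equal, 1.63 in GFP and 1.64 in mock.

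The interaction of assay and transfection in one model of all 24 libraries tests whether footprints moved apart from RNA. By limma 0 of 5 genes passed in each of the 3 comparisons, and 0% of all genes passed in each. At an unadjusted p under 0.05 there were 0 of 5 genes in each, against 0.714%, 0.915% and 0.372% of all genes for the inhibitor against GFP, the inhibitor against mock and GFP against mock. The inhibitor against GFP gave -0.02 for Atf4 with an interval of -0.61 to 0.57, -0.16 for Atf5, 0.06 for Ddit3, 0.32 for Ppp1r15a and -0.13 for Ppp1r15b. The largest value among the 15 was that of Ppp1r15a against mock, 0.62 (SE 0.31) with an interval of -0.02 to 1.26 (limma adjusted p = 1). With the replicate block the limma p was 0.0426 before adjustment and 1 after it, where 2.87% of all genes were under 0.05 before it. The numbers did not pair the footprints of inhibitor and mock, which this block assumes. The value of 0.62 for Ppp1r15a joins an RNA level lower with the inhibitor and a footprint level slightly higher. The same gene gave 0.30 for GFP against mock. Ddit3 gave -0.51 for the inhibitor against mock and -0.57 for GFP against mock, with intervals of -1.57 to 0.55 and -1.63 to 0.49. For Atf4 the 3 interaction values ran from -0.035 to -0.014.

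Atf4 RNA was lower in the libraries numbered 1 than in any other. These 3 libraries, one of each group, held 136 to 139 scaled FPKM, against 174 to 238 in the other 9. Of the 5 genes Atf4 alone had this pattern in RNA, which 3.72% of all genes shared. These are the libraries with 18.1% to 62.7% of their FPKM in Rn45s, and its part in the Atf4 level was not tested. In footprints 0 of 5 genes had the pattern, against 0.572% of all genes. Ppp1r15b RNA was low in GFP library 1 at 27.5 and in mock library 1 at 31.4, but not in inhibitor library 1, at 41.7. Without the libraries numbered 1 the Atf4 difference between inhibitor and GFP was 0.03 in RNA and 0.03 in footprints.

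The genes that ATF4 is known to activate were looked at because its protein was not measured. Whether they follow that protein in these libraries was not tested. Of 36 listed targets, enzymes and carriers of amino acid metabolism and aminoacyl-tRNA synthetases for the most part, 35 were tested in RNA and 34 in footprints, and 0 passed in either direction in any comparison. Against GFP, 28 of 35 targets were below 0 in RNA (80.0%, and 52.2% of all genes), with a median of -0.10 (all genes -0.01). In footprints 28 of 34 were below 0 (82.4%, and 47.0% of all genes), with a median of -0.09 (all genes 0.01). Against mock, with the same inhibitor libraries, 26 of 35 and 24 of 34 were below 0 (74.3% and 70.6%, beside 51.6% and 49.3% of all genes). Between GFP and mock 19 of 35 and 16 of 34 were below 0 (54.3% and 47.1%, beside 48.8% and 53.8% of all genes). The control comparison also moved with the libraries used. Without the libraries numbered 1 and counted below the median of all genes, 25 of 35 targets in RNA and 23 of 34 in footprints were lower in GFP than in mock, while 19 of 35 and 24 of 34 were lower with the inhibitor than with GFP. In the same count 27 of 35 and 25 of 34 were lower with the inhibitor than in mock.

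In RNA the count depended on single libraries. Counted below the median of all genes, 25 of 35 targets were lower than in GFP with all libraries, and leaving out 1 library gave 17 to 30 of 35. It was 17 without inhibitor library 1, the library with the largest Rn45s share, where the list median was 0.01 above that of all genes, 20 without inhibitor library 2 or GFP library 3, and 21 without GFP library 4. Against mock 26 of 35 were lower, and leaving out 1 library gave 20 to 30, with 20 without inhibitor library 2 and 22 without inhibitor library 1 or mock library 2. In footprints against GFP 28 of 34 were below the median of all genes, and leaving out any 1 library of these groups gave 25 to 28 of 34. Footprints against mock moved more. There 24 of 34 were below the median, with 21 without mock library 3 and 28 without mock library 4. The list was chosen with earlier results of these libraries known, and it was given no test of its own. Its members with the smallest p were Jdp2 and Cth. Jdp2, a bZIP factor that dimerizes with ATF and JUN proteins, stood at 1.54 scaled FPKM in inhibitor footprints and 2.97 in GFP footprints, a difference of -0.66 (SE 0.15; limma adjusted p = 0.515). Cth, the cysteine-forming enzyme of transsulfuration, stood at 40.3 and 57.9 in footprints and at 67.8 and 104 in RNA, with differences of -0.51 and -0.55 (limma adjusted p = 1 for both).

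In the other lists, too, 0 genes passed for the inhibitor against GFP. The 10 eIF2 kinases, phosphatase catalytic subunits and their regulators had medians of -0.02 in RNA and 0.00 in footprints. Dnajc3, an inhibitor of the eIF2 kinase PERK, stood at -0.36 in RNA, and Eif2ak3, which encodes PERK, at -0.13 in RNA and 0.09 in footprints. Impact, which inhibits the eIF2 kinase GCN2, stood at 0.11 in footprints. The 11 subunits of eIF2 and eIF2B and related factors had medians of -0.03 and -0.01. Among them Eif2b5 (0.16) and Eif2s2 (-0.30) in RNA and Eif2a (0.30) and Eif2s3x (0.23) in footprints had the smallest p.

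The mRNAs with known uORFs had medians of 0.06 in RNA and 0.05 in footprints. Ifrd1, a transcriptional coregulator, stood at 0.33 in RNA, from 32.6 scaled FPKM in GFP to 40.8 with the inhibitor. Cebpb, a bZIP factor, stood at -0.28 in footprints. Amd1, the decarboxylase gene of polyamine synthesis, was listed at 0 in all 4 inhibitor RNA libraries, at 30.6, 14.2, 0 and 0 in GFP and at 32.5, 0, 0 and 11.4 in mock, which is no basis for a fold change. Of the 22 genes for chaperones and other parts of the unfolded protein response, with medians of 0.04 and 0.05, Atf6 stood at -0.38 and Creld2 at -0.49 in RNA, and Edem1 at 0.28 and Ero1l at 0.19 in footprints. The bZIP partners had medians of -0.00 in RNA and 0.01 in footprints, with Jdp2 at -0.47 and Fosl2 at 0.31 in RNA.

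Across the 24 libraries, with log2 values centred in each table, the genes that varied most like each of the 5 were looked up among the 4488 or 4489 other genes with at least 5 FPKM on average. For Atf4 they were Atox1, a copper chaperone (Pearson r 0.83), Tmed4, a cargo receptor of the secretory pathway (0.81), and Fam63a (0.79). For Atf5 they were Plin3 (0.83), Nf2 (0.82) and Igfbp2 (0.80), and for Ppp1r15b Socs2 (0.80), Tmed2 (0.80) and Xbp1 (0.78), the last a bZIP factor of the unfolded protein response. For Ddit3 they were Kdm4a (0.70), Baiap2 (0.69) and Fbxo2 (0.69), and for Ppp1r15a Hist1h3h (0.70), Rpl32 (0.68) and Plp2 (0.67). Among the 10 pairs of the 5 genes, r over the 12 libraries of a table ran from -0.64 to 0.71 in RNA and from -0.48 to 0.74 in footprints. The highest were Atf4 with Ppp1r15b in RNA (0.71, and 0.61 in footprints) and Atf5 with Ppp1r15b in footprints (0.74, and -0.01 in RNA). The lowest were Ddit3 with Ppp1r15b in RNA (-0.64, and 0.01 in footprints) and Atf4 with Ddit3 in footprints (-0.48, and -0.22 in RNA). In RNA, Atf4 and Ppp1r15b each had the lowest value of the group in GFP library 1 and in mock library 1. The part of these libraries in the r of that pair was not tested. All genes of a library share its depth and scaling, which enter these correlations, and they are given as a description.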

How the data were processed

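The deposited values are FPKM per gene, 1 table for RNA and 1 for footprints; per the file headers they are RSEM estimates made by the authors. The build was mm10 and the tools were CASAVA 1.8.2, Bowtie2, TopHat and RSEM (per the submitters' processing notes), with a version given for CASAVA alone. FPKM are relative to each library's total. Absolute depth is unknown; relative depth came from the steps between low values.

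Libraries of a table were scaled by the median ratio to the genes' geometric means, using genes at 5 FPKM or more in all of them (1717 in RNA, 2960 in footprints). Differences of log2(scaled FPKM + 1), which understates changes of low genes, were tested with limma 3.58.1 (R 4.3.3, trended, robust, two-sided, all 3 groups) where the mean reached 0.5 FPKM (12560 in RNA, 10669 in footprints). The interaction model covered 10497 genes. Adjustment was Benjamini-Hochberg, with a threshold of 0.05. The fits were also run on simulated data, with independent libraries and changes larger than any difference seen for these genes. That run does not bear on smaller differences or on same-numbered libraries that deviate together. Tables and plots used Python 3.11.15, numpy 2.4.6, pandas 2.3.3 and matplotlib 3.10.9.

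The genes, lists and tests were chosen with earlier results of these data known. Named besides the 5 genes are, per list, genes past the threshold and the 2 with the smallest p for the inhibitor against GFP in each table, and the 3 genes most like each of the 5; Slc35a4, Ibtk, Odc1, Slc7a1, Mdm2, Zfp36l1 and Uchl5 were named for their ratio after it was seen. Same-numbered libraries deviated together in RNA (lowest r 0.381 for inhibitor and GFP, 0.315 for inhibitor and mock, 0.370 for GFP and mock) and in footprints of inhibitor and GFP (0.448), but not in footprints of inhibitor and mock (-0.175) or GFP and mock (0.0650), so the pairing comes from the data, not the labels.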

Additional observations from a re-analysis of the deposited data

Results flagged for a closer look

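Among 30 groups of 4 libraries (5 genes, 3 groups, 2 tables), 2 held a library far from the others by Dixon's criterion, for which chance gives about 1 group in 20. Atf4 RNA in GFP library 1 was 139 scaled FPKM, against 189 to 198 in the other GFP libraries, a gap of 0.848 of the group's range. Ppp1r15b RNA in mock library 1 was 31.4 scaled FPKM, against 45.3 to 47.0, a gap of 0.889 of the range. Both are RNA libraries numbered 1, with 18.1% and 39.1% of their FPKM in Rn45s, and the part of that share in these levels was not tested.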

How the results depend on the processing

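Under every alternative run, 0 of the 5 genes passed the threshold in any comparison (828 values), and the smallest adjusted p by limma was 0.560, for Atf5 footprints with the replicate block. Of 45 values 0 had an unadjusted p under 0.05 without and 4 with the block, which are Atf5 footprints against GFP and against mock, Ppp1r15a RNA against mock and its interaction against mock. Over all genes the block gave 826 and 846 of 10669, 1057 of 12560 and 301 of 10497 at that p in these fits. The block changed no call of the 5 genes; over all genes it gave 32 past the threshold in RNA against GFP (2 without), 34 against mock (3 without), and 8 (1 without) and 2 (0 without) in footprints. FPKM as deposited gave 14, 18, 4 and 3 in that order, and 1 each in the interaction for inhibitor against GFP and GFP against mock. With no filter there were 0 in RNA against GFP, and 3 and 1 in footprints against GFP and mock; with a mean of at least 5 FPKM 1 and 1 in RNA against GFP and mock, and 0 in footprints against GFP and for GFP against mock. In RNA against GFP, pseudocount 0.1 and quantile normalization gave 1, and leaving out the libraries numbered 1 gave 0. Fitting 2 groups alone gave 0 in RNA against GFP and against mock and 2 in footprints of GFP against mock. Leaving out 1 library gave 0 to 15 genes in RNA against GFP, 0 to 18 in RNA against mock, 1 to 3, 0 to 1 and 1 to 2 in footprints against GFP, against mock and between controls.

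Signs changed in 115 of 828 values, none of them called, with differences of at most 0.20 in size before the change. FPKM as deposited moves the median of all genes by -0.39 in RNA against GFP, -0.19 against mock and 0.21 between controls, and by 0.39, 0.20 and -0.20 in the interaction. In this scaling Atf4 stood at -0.53 and Ppp1r15b at -0.41 in RNA against GFP, Ddit3 at -0.0295 and Ppp1r15b at -0.24 against mock, and Atf4 at 0.22, Ppp1r15a at 0.039 and Ppp1r15b at 0.16 between controls. In footprints Ddit3 stood at -0.057 against GFP and Atf4 at 0.0040 between controls. In the interaction Atf4 stood at 0.45, Atf5 at 0.17 and Ppp1r15b at 0.32 against GFP, Atf4 at 0.23 and Ppp1r15b at 0.15 against mock, and Ppp1r15b at -0.18 between controls. Pseudocount 0.1 gave -0.0056 for Ddit3 footprints against GFP, and quantile normalization 0.029 for Atf4 RNA against mock and 0.012 for its interaction between controls. Without the libraries numbered 1, RNA against GFP gave 0.18 for Ddit3 and -0.037 for Ppp1r15b, and -0.091 for Ppp1r15b against mock. Footprints gave 0.026 for Atf4 and 0.0057 for Ppp1r15b against GFP, 0.0435 for Ppp1r15b against mock and 0.038 between controls. The interaction gave -0.11 for Ddit3 and 0.042 for Ppp1r15b against GFP and 0.13 for Ppp1r15b against mock. The cause of these sign changes was not tested. With no filter the Atf4 ratio in the GFP group was -1.31, in place of -0.98. Before the median was taken off, the Atf4 ratio was -1.81 in both settings. The median of all genes moved from -0.83 to -0.49.

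Leaving out 1 library moved these differences across 0. In RNA of inhibitor against GFP the ranges were Atf4 -0.10 to 0.15, Ddit3 -0.29 to 0.20 and Ppp1r15b -0.050 to 0.22. In RNA of inhibitor against mock the ranges were Atf4 -0.16 to 0.12, Ddit3 -0.19 to 0.38 and Ppp1r15b -0.10 to 0.086. In RNA of GFP against mock the ranges were Atf4 -0.18 to 0.091, Atf5 -0.039 to 0.24, Ddit3 -0.16 to 0.44 and Ppp1r15b -0.22 to 0.082. In footprints of inhibitor against GFP the ranges were Atf4 -0.15 to 0.16, Ddit3 -0.11 to 0.36, Ppp1r15a -0.031 to 0.24 and Ppp1r15b -0.21 to 0.11. In footprints of inhibitor against mock the ranges were Atf4 -0.19 to 0.11 and Ppp1r15b -0.27 to 0.046. In footprints of GFP against mock the ranges were Atf4 -0.12 to 0.060, Atf5 -0.12 to 0.13, Ppp1r15a -0.068 to 0.29 and Ppp1r15b -0.16 to 0.041. In the interaction for inhibitor against GFP the ranges were Atf4 -0.16 to 0.14, Atf5 -0.43 to 0.046, Ddit3 -0.17 to 0.39 and Ppp1r15b -0.33 to 0.035. In the interaction for inhibitor against mock the ranges were Atf4 -0.18 to 0.13 and Ppp1r15b -0.30 to 0.027. In the interaction for GFP against mock the ranges were Atf4 -0.14 to 0.13, Atf5 -0.23 to 0.061 and Ppp1r15b -0.14 to 0.16.

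Pseudocount 0.1 together with a mean of at least 5 FPKM, chosen after seeing the data, put Atf4 above 4.61% to 4.90% of genes. Ddit3, with the lowest values, had the widest intervals in RNA and in footprints.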
